A study of Mus musculus with 26 samples.

Results

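RNA bound to tagged ribosomes was compared between mice whose cocaine intake escalated and mice that took saline, in the accumbens nucleus. All were adult Drd2-EGFP/Rpl10a transgenic mice (line CP101, on an FVB/N-Swiss Webster background crossed for at least 9 generations to C57BL/6) that self-administered by vein with long access. The escalating group (cocaine, without withdrawal) has 2 libraries and the saline group (also without withdrawal) has 3, together 5 of the 26 libraries of the study. The groups were set by the sample titles. Both carry the same transgene, so neither is a wild-type control. The sources used here do not say whether a library is 1 animal or a pool, so p-values measure only a spread between libraries. In the main fit that spread was estimated over all 24 libraries of tagged-ribosome RNA. The question asked is which genes lay on the same side in both escalating libraries against all 3 saline libraries.

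The accumbens is a part of the ventral striatum where dopamine release during reward is sensed by medium spiny neurons, which use either the D1 or the D2 dopamine receptor. In translating ribosome affinity purification (TRAP), a ribosomal protein fused to EGFP is made only in cells that use a chosen promoter, here that of Drd2, and its ribosomes are pulled down with antibodies against EGFP. D2 receptors signal through an inhibitory G protein, and D2 neurons also use adenosine receptors and enkephalin. Cholinergic interneurons of the striatum use Drd2 too, so the tagged population is not medium spiny neurons alone. Cocaine blocks dopamine reuptake, and under long access some animals take more in each session, which is called escalation.

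The libraries held 5.11, 9.50 and 3.14 M counts in genes (M, the prefix mega) in saline replicates 1, 3 and 4, and 17.5 and 7.63 M in escalating replicates 1 and 2. Levels are CPM (counts per M, scaled by edgeR's trimmed mean of M values, TMM). They are given in that order of replicates throughout, as 3 saline values against 2 escalating values. A level of 3 counts is 0.666, 0.362 and 0.901 CPM in saline and 0.197 and 0.443 CPM in escalating, so genes of a few CPM rest on few counts. Across genes, Pearson r of log2 CPM was 0.773 between the escalating libraries, 0.683 to 0.786 between saline libraries and 0.699 to 0.838 across the groups. Genes are not independent replicates, so r is a description: the escalating pair lay within the range of pairs across the groups. Saline replicate 1 stood lowest, with a median r of 0.721 to the other 4 libraries.

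The labelled cell type was checked first. Drd2 (chromosome 9, 49340627 to 49408177, plus strand, GRCm38) had 2118, 2850.4 and 1425 CPM in saline and 2976 and 2335 CPM in escalating, a log2 fold change of 0.32 (SE 0.55). Adora2a, the adenosine receptor gene of D2 neurons, had 484, 898 and 314 against 990.3 and 513 CPM, and Penk, which encodes enkephalin, had 1627, 5526 and 1745 against 2708 and 3951 CPM. Both groups overlapped in all 3 genes. The log2 fold change was 0.41 for Adora2a and 0.17 for Penk, and each turns negative without single libraries. The summed level of the 10 D2 neuron markers was 5504, 10635 and 4437 CPM in saline and 8322 and 8091 CPM in escalating, and that of 9 D1 neuron markers was 385, 316 and 317 CPM and 295 and 299.9 CPM. The 7 cholinergic interneuron markers tested summed to 223, 51.5 and 67.6 CPM in saline and 39.6 and 36.2 CPM in escalating. Of the 9 listed, 1 was at 0 in both escalating libraries. Most of the sum in saline replicate 1 was Zic4, which overlapped between the groups (192, 3.01 and 46.3 against 16 and 8.56 CPM). D2 sums overlapped, while the sums of D1 and of cholinergic markers were below all saline libraries in both escalating ones, for D1 by a narrow margin. The most abundant D1 marker, Ebf1, overlapped between the groups (265, 185 and 152 against 186 and 155 CPM). A positive log2 fold change was seen in 2 of 9 D1 markers and 1 of 7 cholinergic markers. No single cholinergic marker tested lay below all saline libraries in both escalating ones. The positive one, Slc18a3, lay above them (0, 0.241 and 0 against 0.787 and 21.7 CPM). The part of these cells in the results was not tested. Of D1 genes, Drd1 had 28.6, 50.3 and 42 against 17.1 and 38.2 CPM, and Tac1, which encodes substance P, had 1.78, 21.2 and 18.3 against 2.16 and 21.3 CPM. Chat, the acetylcholine-synthesizing enzyme of cholinergic interneurons, had 0, 11.1 and 2.7 against 2.1 and 0 CPM. No D1, D2 or shared medium spiny neuron marker (35 tested) was apart between the groups.

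Summed vascular, microglia, astrocyte and oligodendrocyte markers overlapped between the groups. The 13 endothelial markers summed to 7462, 1283 and 3368 CPM in saline and 6794 and 1818 CPM in escalating, so saline replicate 1 and escalating replicate 1 were both high. Mural cell markers (10 genes) ran in the same order, with 6219, 959 and 3056 CPM and 4943 and 1310 CPM. Microglia markers (11 tested) summed to 452, 44.7 and 177 CPM in saline and 29.4 and 104 CPM in escalating, with 3 of 12 at 0 in both escalating libraries. Of 13 endothelial markers none was at 0 in any of the 5 libraries, and of 14 astrocyte markers at most 2 were in a library. In such bulk libraries fewer cells of a type and less RNA per cell cannot be told apart.

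**Figure D1:**
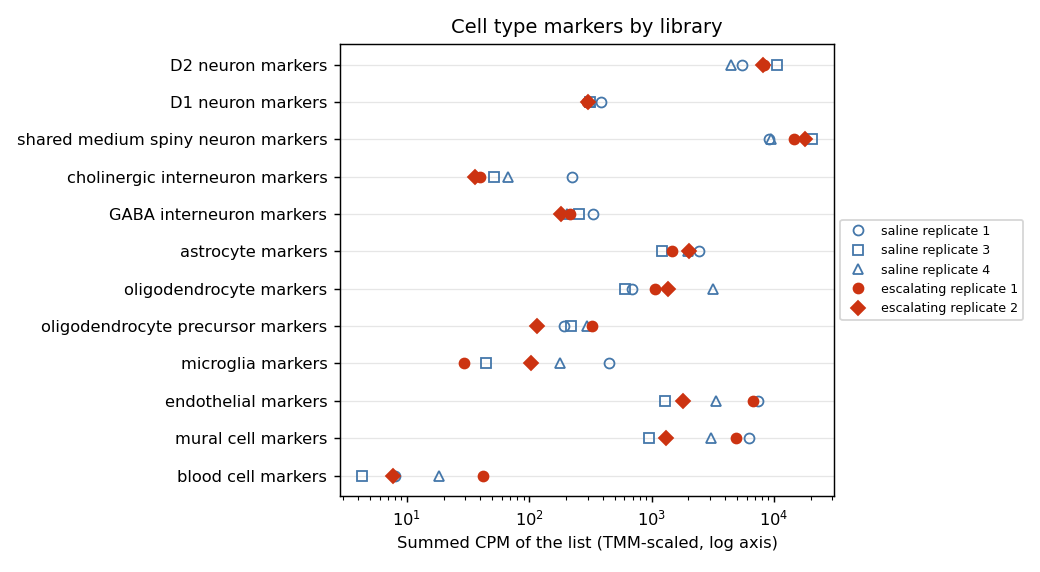
Summed CPM of each cell type marker list (log axis) in the 3 saline libraries (open symbols) and the 2 escalating libraries (filled symbols). The groups overlap for D2 and shared medium spiny neuron markers. The escalating libraries lie lowest for the sum of cholinergic markers (39.6 and 36.2 CPM), though for no single marker tested of that list. Escalating replicate 1 lies near saline replicate 1 for endothelial (6794 and 7462 CPM) and mural markers.

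By edgeR's quasi-likelihood test, 0 of 15854 genes (0%) passed a Benjamini-Hochberg adjusted p of 0.05, and the smallest adjusted p was 0.614. At an unadjusted p under 0.05 there were 1283 genes (8.09%). By DESeq2, 143 of 15592 genes with an adjusted p (0.917%) passed (27 higher, 116 lower), 59 of them without a count in saline or in escalating, and by limma voom 0 passed, with 824 at an unadjusted p under 0.05. In 1168 genes (7.37%) both escalating libraries lay above all 3 saline libraries, and in 1058 (6.67%) both lay below. Such genes are called apart here, and a gene called higher or lower lay so in both escalating libraries. These counts describe the rule and have no test, since 2 against 3 libraries allow no exact two-sided permutation p below 0.2. Among the genes apart, 317 of the higher and 358 of the lower had an unadjusted p under 0.05. The nearest libraries of the groups were at least 1 apart on the log2(CPM + 1) scale in 213 higher and 195 lower genes. Escalating libraries held no count of 112 lower genes, and saline libraries none of 69 higher genes. A log2 fold change is edgeR's estimate for escalating minus saline, with its standard error (SE). Over all genes its median was -0.08, so single values near that size mark no departure.

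Among genes higher in both escalating libraries, several of the leading ones had mean levels over 10 times those of saline. First by p was Cpne1 (chromosome 2, 156071842 to 156111965, minus strand), which encodes copine 1, a calcium-dependent membrane-binding protein. It had 6.88, 6.27 and 16.5 CPM in saline and 341 and 38.1 CPM in escalating. The ratio of mean CPM was 19.2 and the log2 fold change 4.27 (SE 0.95, edgeR adjusted p = 0.614), with escalating replicate 1 well above replicate 2. Most Cpne1 exons also belong to a second gene model at the same place in GENCODE M21 (83.3% of exon bases), so their reads cannot be told apart. Gpr173 (chromosome X, 152343598 to 152368704, minus strand), an orphan G protein-coupled receptor gene, had 5.99, 10.1 and 11.7 CPM in saline and 87.2 and 218 CPM in escalating. Its lowest escalating level was over 7 times its highest saline level, a gap of 2.79 on the log2(CPM + 1) scale, with a log2 fold change of 4.04 (SE 1.0, edgeR adjusted p = 0.614). The 2 escalating libraries ranked in opposite order for these genes, Cpne1 being highest in replicate 1 and Gpr173 in replicate 2.

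Lss (chromosome 10, 76531588 to 76557138, plus strand), which encodes lanosterol synthase of cholesterol synthesis, had close escalating levels of 49.6 and 56.6 CPM against 1.55, 9.28 and 6.31 CPM in saline, a log2 fold change of 3.2 (SE 0.89). Med21 (chromosome 6, 146642547 to 146650732, plus strand), a subunit of the Mediator complex that links transcription factors to RNA polymerase II, had 0.444, 4.58 and 6.01 against 78.4 and 31.9 CPM. Dhdh, a dihydrodiol dehydrogenase gene, had 12.6, 23.3 and 24.6 against 133 and 58.2 CPM. In each of these genes saline replicate 1 was the lowest of the 5 libraries. Paqr3, which encodes a Golgi membrane protein, had 0.666, 3.25 and 2.4 CPM in saline and 90.3 and 12.1 CPM in escalating. Dph7, an enzyme gene of the diphthamide modification of elongation factor 2, had 0.888, 0.362 and 0.901 against 5.97 and 48.1 CPM. Clvs2, a clathrin vesicle-associated lipid-binding protein gene, had 0.222, 2.89 and 7.21 against 20.1 and 67.5 CPM. The escalating libraries of Paqr3, Dph7 and Clvs2 differed from each other by over 3 times, so the size of the difference is poorly fixed. Zcchc10 had 0, 5.42 and 0.901 against 31.7 and 80.6 CPM. Pnma1, a neuronal gene related to retroviral gag genes, had no count in the 3 saline libraries and 34.6 and 3.99 CPM in escalating. That is at least 135-fold higher, taking 3 counts over the saline group as the floor, and at least 21.4-fold higher without escalating replicate 1, which held 527 of the 554 counts, or 65.7-fold without saline replicate 3. DESeq2 called Cpne1 (adjusted p = 0.00226), Gpr173 (adjusted p = 0.0038), Med21 (adjusted p = 0.000654) and Lss (adjusted p = 0.0249), while edgeR called none of them.

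Ranked by the gap between the nearest libraries, the higher genes were led by Lix1 and Hsd3b7. Lix1 (chromosome 17, 17402672 to 17459387, plus strand) had 0.444, 3.5 and 3.9 CPM in saline and 64.2 and 49.6 CPM in escalating, a gap of 3.37. Hsd3b7 (chromosome 7, 127800604 to 127803802, plus strand), an enzyme of bile acid synthesis from cholesterol, had 0.666, 5.42 and 6.31 against 81.6 and 71.6 CPM, a gap of 3.31, and 62% of its exon bases lie in an overlapping gene model. In both, the escalating libraries were close to each other and saline replicate 1 was the lowest. Mavs, an adaptor of antiviral RNA sensing, had 0, 3.13 and 3.3 against 28.3 and 27 CPM. Limk1 (chromosome 5, 134656039 to 134688598, minus strand), the kinase that phosphorylates the actin-severing protein cofilin, had 3.33, 7.11 and 1.8 against 101 and 44 CPM, a ratio of means of 17.7. Eif2b4, a subunit of the translation factor eIF2B, had 0.444, 0.844 and 1.5 against 12 and 16.8 CPM. Some of these leading genes were near 0 in saline. Fgf18, a fibroblast growth factor gene, had 0, 0.121 and 0.3 CPM in saline and 6.56 and 12.6 CPM in escalating, a ratio of pooled counts of 67.8 (95% exact interval 18.5 to 564), which covers counting error only and was 108-fold without saline replicate 4. Lrrc75b had 0, 1.33 and 0 against 14.4 and 22.6 CPM.

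**Figure D2:**
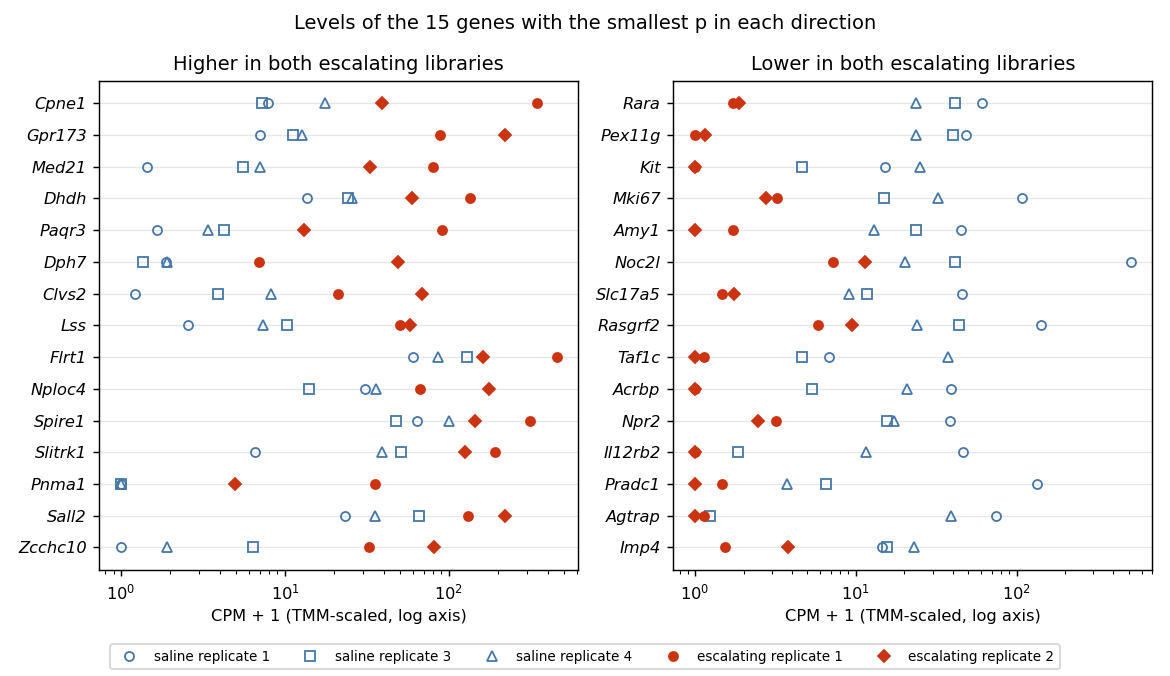
CPM + 1 (log axis) of 15 higher and 15 lower genes, ranked by p among genes that were apart, in 3 saline (open symbols) and 2 escalating libraries (filled symbols). Each filled symbol lies beyond all open symbols of its row by the rule that chose the genes, and Rara and Pex11g show the widest gaps of the lower panel (3.66 and 4.38 on the log2 scale).

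Abundant genes rest on more counts. Of the genes apart, 955 higher and 785 lower ones had no predicted symbol and reached 2 in mean log2 CPM. Among these, 195 higher and 83 lower ones had a mean of at least 100 CPM over the 5 libraries. The number of all genes tested at that level is not given here, so these counts carry no background share. Ctxn1 (chromosome 8, 4257660 to 4259274, minus strand), which encodes the neuronal membrane protein cortexin 1, had 309, 772 and 414 CPM in saline and 1617 and 1056 CPM in escalating, a log2 fold change of 1.42 (SE 0.51). Flrt1 (chromosome 19, 7092001 to 7105729, minus strand), a leucine-rich repeat adhesion protein gene, had 59.5, 127 and 85.3 against 452 and 160.2 CPM, with a log2 fold change of 1.75 (SE 0.5). Spire1, an actin nucleation factor gene, had 62.8, 46.5 and 99.7 against 312 and 143 CPM, and its log2 fold change was 1.71. In Flrt1, Spire1 and Ctxn1 escalating replicate 1 was the highest library. Ccdc92 had 184, 189 and 141 CPM in saline and 333 and 746 CPM in escalating, with replicate 2 the highest. Hid1, which acts in dense core vesicle formation, had 36.6, 131 and 120.1 against 501 and 215 CPM. Med16, another Mediator subunit gene, had 102, 51.8 and 67.9 against 359.6 and 166 CPM. Igsf8, an immunoglobulin superfamily gene, had 54.1, 45.3 and 103 against 211 and 285 CPM. Sfxn3, a mitochondrial carrier gene, had 98.5, 99.2 and 67.3 against 177 and 273 CPM, and Mkl1, a coactivator of serum response factor, had 15.5, 124 and 73.9 against 219 and 171 CPM. Over the 10 abundant higher genes, which also include Proser1, log2 fold changes ran from 1.35 (Sfxn3) to 1.90 (Hid1).

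On the lower side, Vps33a (chromosome 5, 123528659 to 123573038, minus strand), a subunit of the complexes that fuse endosomes with lysosomes, had tight values in both groups. It had 234, 171 and 188 CPM in saline, 198 ± 32.6 CPM (SD, n = 3), and 73.1 and 78 CPM in escalating, 75.5 ± 3.42 CPM (SD, n = 2). The log2 fold change was -1.39 (SE 0.45). Ralgds, a guanine nucleotide exchange factor for Ral downstream of Ras, had 109.6, 286 and 120.4 against 62.4 and 35.7 CPM, a log2 fold change of -1.81 (SE 0.6). Plxna4, a semaphorin co-receptor gene, had 466, 268 and 372 against 193 and 164 CPM, with a log2 fold change of -1.04. In Noc2l, a nucleolar protein gene, most of the saline mean came from replicate 1: 512, 40.5 and 19.2 CPM against 6.23 and 10.3 CPM in escalating. Zfp236 (473, 101 and 112 CPM in saline, 77.8 and 67.2 in escalating) and Ppfia1, a liprin of the presynaptic active zone (392, 109 and 126 against 96.1 and 59.7 CPM), were also highest in saline replicate 1. Tcf4, a transcription factor gene, had 283, 175 and 387 against 158 and 94.8 CPM, where the nearest libraries of the groups almost met. Ncoa3, a nuclear receptor coactivator gene, had 243, 98.2 and 103 against 66.7 and 24.8 CPM.

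**Figure D3:**
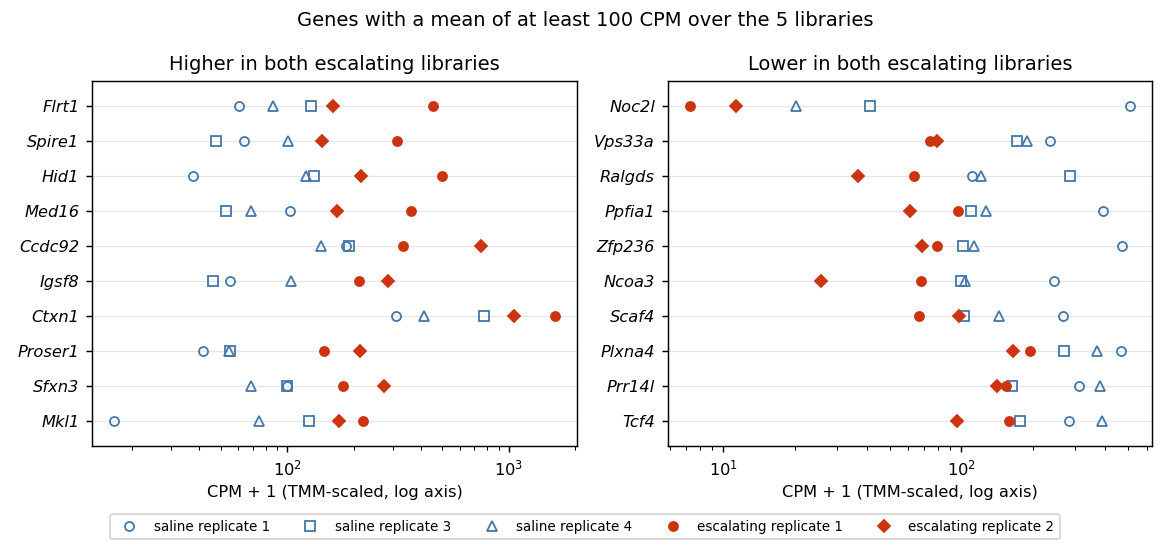
CPM + 1 (log axis) of genes with a mean of at least 100 CPM over the 5 libraries, 10 higher and 10 lower, ranked by p among genes that were apart. Vps33a has 171 to 234 CPM in saline and 73.1 and 78 CPM in escalating, while Noc2l has 512 CPM in saline replicate 1 alone.

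First by p among lower genes was Rara (chromosome 11, 98927818 to 98974942, plus strand), the retinoic acid receptor alpha gene. It had 59.9, 40.5 and 22.8 CPM in the saline libraries and 0.721 and 0.886 CPM in the escalating ones, a log2 fold change of -5.64 (SE 1.3, edgeR adjusted p = 0.614). All 3 saline libraries were over 25 times the higher escalating library. Pex11g (chromosome 8, 3457105 to 3467680, minus strand), which encodes a protein of peroxisome division, had 47.3, 39.1 and 22.8 CPM in saline and 0 and 0.148 CPM in escalating, with 1 count over both escalating libraries. Its ratio of pooled counts, saline over escalating, was 837 (95% exact interval 149.6 to 33105), and its gap of 4.38 was the widest in either direction among named genes. Kit (chromosome 5, 75574916 to 75656722, plus strand), the stem cell factor receptor gene, had 14.2, 3.62 and 24 CPM in saline and no count in either escalating library, at least 79.2-fold lower with 3 counts over the escalating group as the floor. That bound was 24.3-fold without escalating replicate 1, the deepest library, and 135-fold without saline replicate 3. Mki67, the proliferation marker Ki-67, had 107, 14 and 31.2 against 2.23 and 1.77 CPM, a log2 fold change of -4.64 (SE 1.19). In Mki67 saline replicate 1 was over 3 times the other saline libraries. DESeq2 called Rara (adjusted p = 6.94e-06), Pex11g (adjusted p = 0.000109), Kit (adjusted p = 0.00029) and Mki67 (adjusted p = 0.000384), which edgeR did not.

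Other lower genes also had low escalating levels, many beside a wide saline spread. Rasgrf2, a guanine nucleotide exchange factor of Ras that responds to calcium, had 140.3, 42.6 and 23.1 against 4.79 and 8.42 CPM. Slc17a5, the lysosomal sialic acid transporter gene, had 44.6, 10.7 and 8.11 against 0.459 and 0.738 CPM. Npr2, a receptor of C-type natriuretic peptide, had 37.7, 14.6 and 16.2 against 2.16 and 1.48 CPM. In these genes saline replicate 1 was again the highest library. Il12rb2, an interleukin receptor gene, had 45.5, 0.844 and 10.5 CPM in saline and 0 in both escalating libraries, with 40% of its exon bases shared with a gene on the other strand. Acrbp had 38.2, 4.34 and 19.8 CPM in saline and 0 in escalating, at least 125-fold lower by the same floor (38.3-fold without escalating replicate 1, 64.4-fold without saline replicate 1 and 223-fold without saline replicate 3). Imp4, a ribosomal RNA processing gene, had 13.5, 14.6 and 21.9 against 0.525 and 2.81 CPM. By gap, the lower genes also included Dync2li1 and Tulp3, both of ciliary transport. Dync2li1 had 22.6, 17 and 15.3 CPM against 0.262 and 1.62 CPM, and Tulp3 had 16.4, 31.1 and 26.7 CPM against 1.9 and 1.18 CPM. Saline levels of Dync2li1 and Tulp3 lay within 2 times of each other, unlike those of Mki67 or Noc2l. Pex7, an import receptor of peroxisomes, had 30.0, 26.6 and 10.8 against 1.11 and 1.03 CPM.

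Cocaine without escalation (the nonescalating group, 5 libraries of the same library set) gives a side-by-side value for some of these genes. No difference between the cocaine groups was tested here, and both are read against the same 3 saline libraries. The lowest, median and highest nonescalating levels of Cpne1 were 1.26, 47.2 and 61 CPM, and those of Gpr173 were 4.04, 17.5 and 56.3 CPM. All 5 nonescalating libraries lay above the highest saline library for Clvs2 (7.71, 10.7 and 19.5 CPM), Dph7 (9.9, 14.3 and 23.6 CPM), Eif2b4 (6.92, 11.8 and 31.6 CPM), Hsd3b7 (14.8, 28.8 and 79.9 CPM), Mavs (13.5, 26.8 and 38.5 CPM) and Paqr3 (4.92, 17.3 and 27.4 CPM). The same held for Fgf18, Hdac5 and Kcnj3, among other named genes. On the lower side, all 5 lay below the lowest saline library for Ralgds (30.8, 55 and 61.7 CPM), Vps33a (78.7, 94.4 and 111 CPM) and Rxrg (9.9, 30.6 and 46.3 CPM). This was also so for Dync2li1 and Kcna3. Mag, lower in escalating, went the other way, with all 5 nonescalating libraries above the highest saline library. For other leading genes only some of the 5 nonescalating libraries lay beyond saline on the escalating side. Below the lowest saline library were 3 for Rara, 4 for Pex11g, 1 for Kit and 2 for Mki67. Above the highest saline library were 4 for Slitrk1, 4 for Lss and 1 for Nr4a3. For Rara the nonescalating levels were 1.26, 22.6 and 28.6 CPM, for Pex11g 2.28, 9.48 and 47.1 CPM, for Kit 0.315, 6.16 and 11.5 CPM and for Mki67 1.84, 21.6 and 56.6 CPM, all reaching above the escalating libraries. Slitrk1 had 20.9, 76.3 and 168 CPM, Lss 7.55, 27.3 and 54.7 CPM and Nr4a3 1.57, 9.52 and 29.1 CPM.

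Gene lists are described by how many tested members were apart in each direction, beside 7.37% (higher) and 6.67% (lower) of all genes tested. No member of any of the 47 lists passed edgeR, so these are counts and not tests. DESeq2 called 10 of 1076 list members, beside 143 of 15592 among all genes (0.917%), so the lists held about the background share. These were 3 higher (Lss, Limk1 and Eif2b4) and 7 lower, among them Rara, Aldh1a2, Kit, Faah, Fgfr3 and Grik1. Of the 173 named genes that were apart DESeq2 called 40. Many of these were chosen by small edgeR p or wide gap in the same libraries, so a high share follows from the choice. The 4 largest shares on the higher side were those of opioid and neuropeptide genes (6 of 22, 27.3%), synaptic adhesion genes (7 of 27, 25.9%), MAP kinase phosphatases (2 of 8) and immediate early genes (5 of 25, 20%). On the lower side the 4 largest were those of microglia markers (3 of 11, 27.3%), retinoid genes (4 of 16, 25%), astrocyte markers (3 of 14) and genes of the unfolded protein response (4 of 21, 19%).

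**Figure D4:**
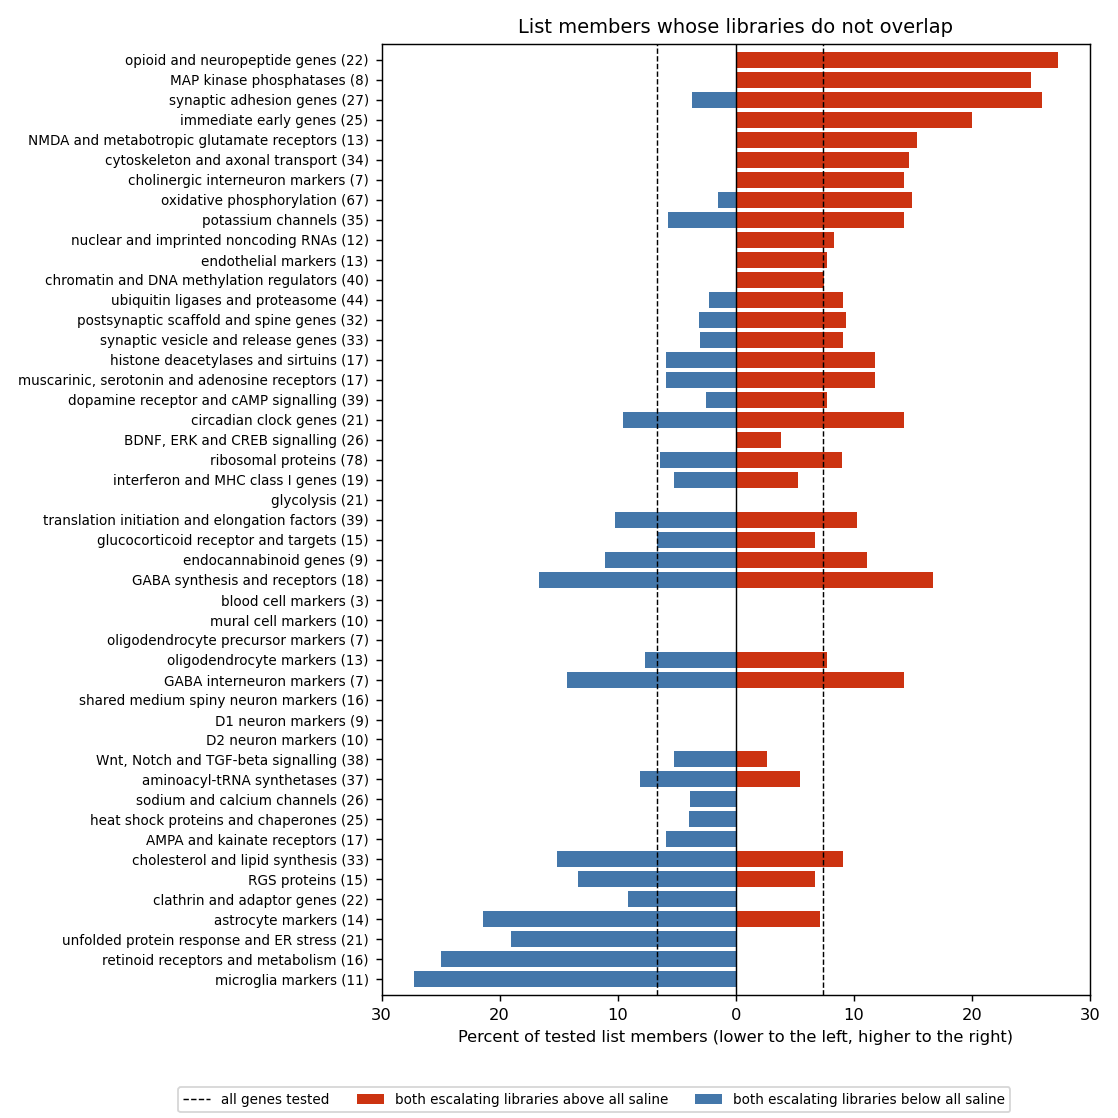
Share of the tested members of each gene list (number tested in parentheses) with both escalating libraries above (right) or below (left) all 3 saline libraries, in percent. Dashed lines give the shares over all 15854 genes, 7.37% to the right and 6.67% to the left; opioid and neuropeptide genes reach 27.3% to the right and microglia markers 27.3% to the left.

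Immediate early genes are transcribed within minutes of strong synaptic input, and in the striatum they include the Egr and Nr4a transcription factors. Of 26 listed, 25 were tested: 5 were higher in both escalating libraries, 0 were lower and 14 had a positive log2 fold change, with a median of 0.48. That median rests on both escalating libraries, since it was -0.60 without replicate 1 and -0.01 without replicate 2. Nr4a3 (chromosome 4, 48045153 to 48086447, plus strand), an orphan nuclear receptor gene, had 7.77, 18.4 and 7.51 CPM in saline and 79.4 and 51.7 CPM in escalating. Its lowest escalating level was over 2 times the highest saline level, and its log2 fold change was 2.54 (SE 1.14). Nr4a1, its paralog, had 64.8, 47.6 and 37.5 against 139 and 79.6 CPM, a log2 fold change of 1.13. Egr1 had 206, 441 and 314 CPM in saline and 759 and 515 CPM in escalating, and Egr3 111, 131 and 91.6 against 199 and 144 CPM. Egr4 was scarce, with 1.78, 5.67 and 8.11 against 21.2 and 11.1 CPM. In the Egr and Nr4a genes escalating replicate 1 was the highest library and replicate 2 lay nearer to saline. Fos was close to 0 in all 5 libraries (0, 0.964 and 0 CPM in saline, 0 and 1.92 CPM in escalating).

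The promoters of 3 of the 5 higher members are shown for the cAMP response element (CRE). It is the site of the transcription factor CREB that many immediate early genes carry. Those of Egr1 and Egr3 are not shown, so the 3 printed do not stand for all 5. The 250 bases before the RefSeq start (GRCm38.p6) are given 5′ to 3′ on the gene's strand. Capitals mark TGACG or its other strand CGTCA, each of which is 1 arm of the palindromic CRE. The full CRE, TGACG running into CGTCA with the CG shared, is in none of these windows.
Nr4a3, chr4:48045055-48045304, plus strand: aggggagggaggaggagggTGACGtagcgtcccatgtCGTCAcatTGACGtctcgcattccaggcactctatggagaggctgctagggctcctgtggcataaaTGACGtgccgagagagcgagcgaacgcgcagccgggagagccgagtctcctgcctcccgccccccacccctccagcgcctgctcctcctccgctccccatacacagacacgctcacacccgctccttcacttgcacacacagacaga
Nr4a1, chr15:101266596-101266845, plus strand: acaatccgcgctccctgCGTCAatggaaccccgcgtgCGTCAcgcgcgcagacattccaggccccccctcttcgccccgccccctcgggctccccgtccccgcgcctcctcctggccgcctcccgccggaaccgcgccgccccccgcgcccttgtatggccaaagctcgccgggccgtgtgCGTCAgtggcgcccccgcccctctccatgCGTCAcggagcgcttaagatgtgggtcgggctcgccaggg
Egr4, chr6:85513590-85513839, minus strand: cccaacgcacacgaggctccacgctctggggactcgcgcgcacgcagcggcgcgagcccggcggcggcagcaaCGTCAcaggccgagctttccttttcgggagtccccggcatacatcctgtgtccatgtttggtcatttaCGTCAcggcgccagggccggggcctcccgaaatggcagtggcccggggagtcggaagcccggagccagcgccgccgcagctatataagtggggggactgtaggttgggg
The Nr4a3 and Nr4a1 windows hold 4 such arms each and that of Egr4 holds 2. Among immediate early genes 14 of 19 with a promoter in the table (73.7%) hold at least 1 arm, against 29.4% of 11099 genes tested and 19.8% of all 27025 genes in the table. The full CRE stood in 3 of those 19 (15.8%), against 2.97% of genes tested. The share with an arm was 34.3% of 854 genes apart on the higher side and 31.2% of 764 on the lower side. The AP-1 site TGANTCA, also searched on both strands, stood in 5.15% of the higher and 4.97% of the lower promoters, against 5.41% of genes tested. A match is a description of the letters and says nothing of binding.

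MAP kinase phosphatases end the ERK, p38 and JNK signals that drive immediate early genes. Of 8 tested, Dusp7 and Dusp10 were apart, both higher. Dusp7 (chromosome 9, 106368632 to 106375724, plus strand), which acts on ERK, had 39.1, 69.6 and 77.8 CPM in saline and 178 and 156 CPM in escalating, a log2 fold change of 1.43 (SE 0.67). Dusp10, which acts on p38 and JNK, had 0, 2.89 and 2.7 against 19.5 and 10.3 CPM. Of 26 genes of BDNF, ERK and CREB signalling, only the adaptor gene Grb2 was apart, with 55.3, 61 and 21 against 83.6 and 84.3 CPM.

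Opioid and neuropeptide genes cover the transmitter peptides of medium spiny neurons and their G protein-coupled receptors. Of 26 listed 22 were tested, 16 with a positive log2 fold change and a median of 0.45, which was 0.00 without escalating replicate 2. The 6 genes apart were all higher, and 5 of them encode receptors. How many of the 22 tested encode receptors is not given here, so this count is not a share of receptor genes. Oprm1 (chromosome 10, 6758506 to 7038198, plus strand), the mu opioid receptor gene, had 10.4, 23.6 and 64.6 CPM in saline and 83.5 and 86.4 CPM in escalating, a log2 fold change of 1.37 (SE 0.8, edgeR adjusted p = 0.658). Oprl1, the nociceptin receptor gene, had 0.444, 7.71 and 4.5 against 28 and 24.4 CPM, a log2 fold change of 2.62 (SE 1.37). Escalating levels of Oprm1 and Oprl1 were close to each other while saline levels spread over 6 times or more. Nts (chromosome 10, 102481756 to 102490486, minus strand), which encodes neurotensin, had 0.222, 2.65 and 0.601 against 11 and 13.7 CPM, a log2 fold change of 3.35 (SE 1.49). The other 3 receptor genes apart were scarce. Sstr2, a somatostatin receptor gene, had 0, 0 and 1.5 against 4.46 and 3.1 CPM. Its paralog Sstr3 had 0, 0 and 0.3 against 0.459 and 0.443 CPM, from 1 count in saline and 10 in escalating. The neuropeptide Y receptor gene Npy2r had 0.444, 4.46 and 2.1 against 10.4 and 5.76 CPM.

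Among other receptors for modulators, 2 of 17 muscarinic, serotonin, adenosine and histamine receptor genes were higher and 1 was lower. Htr1d, a serotonin receptor gene, had 3.55, 44.4 and 15.3 CPM in saline and 93.5 and 76 CPM in escalating, a log2 fold change of 2.0 (SE 0.96). Hrh3, the histamine H3 receptor gene, had 507, 504 and 291 against 795 and 809 CPM, with escalating libraries nearly equal. Chrm2, a muscarinic receptor gene of cholinergic cells, had 2.89, 0.723 and 0.3 CPM and no count in escalating. The endocannabinoid list (9 tested) held 1 gene in each direction, both enzymes of anandamide metabolism. Napepld, which releases anandamide from its precursors, had 7.99, 3.98 and 6.01 against 63.2 and 15.8 CPM. Faah, which breaks anandamide down, had 23.1, 5.42 and 1.8 against 0.0656 and 0.148 CPM. The Faah ratio of pooled counts, saline over escalating, was 106 (95% exact interval 28.8 to 881), which fell to 48.3-fold without saline replicate 1 and 65.1-fold without escalating replicate 1.

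In dopamine receptor and cAMP signalling (39 tested) 3 genes were higher (7.69%) and 1 lower (2.56%), against a background of 7.37% and 6.67%. Adcy9, an adenylyl cyclase gene, had 98.3, 121 and 91.3 against 162 and 198 CPM, a log2 fold change of 0.79 (SE 0.43). Adcy2, another adenylyl cyclase gene, lay the other way, with 14.2, 20.6 and 21 CPM in saline and 3.54 and 2.51 CPM in escalating, a log2 fold change of -2.61 (SE 1.11). Grk4, a receptor kinase gene, had 8.66, 0.603 and 3.9 against 22.3 and 10.5 CPM, and Gnai2, an inhibitory G protein gene, 199.7, 177 and 227 against 468 and 228 CPM, with groups that overlap under the median-of-ratios scaling of DESeq2. Regulators of G protein signalling (RGS proteins), which shorten the signals of such receptors, held 1 higher and 2 lower of 15. Rgs8 had 436, 659 and 489.8 against 842 and 869 CPM, and Rgs4 233, 235 and 138 against 92.4 and 129.8 CPM. Rgs6, lower too, had 26, 4.94 and 11.1 against 0.59 and 2.36 CPM, and overlapped after thinning to equal depth.

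Synaptic adhesion proteins bridge the 2 sides of a synapse and set its type. Of 27 tested members 7 were higher, 1 was lower and 17 had a positive log2 fold change, with a median of 0.27 that was -0.12 without escalating replicate 2. Slitrk1 (chromosome 14, 108908800 to 108914158, minus strand), a postsynaptic organizer gene, had 5.55, 49.7 and 37.8 CPM in saline and 191 and 125 CPM in escalating, a log2 fold change of 2.34 (SE 0.68). Nrxn2, a presynaptic neurexin gene, had 159, 179.9 and 61 against 445 and 225 CPM, a log2 fold change of 1.33 (SE 0.61). The presynaptic receptor phosphatase gene Ptprs had 222, 232 and 216 against 283 and 254 CPM. In Lrrtm3, a postsynaptic neurexin partner gene, the nearest libraries almost met (51.7, 180.1 and 85.3 CPM in saline, 182 and 221 CPM in escalating). Lrrtm2 had 48.2, 87.9 and 64.6 against 102 and 113 CPM, and Cadm3 296, 411 and 254 against 476 and 416 CPM. Ptprd, a paralog of Ptprs, had 32.2, 25.4 and 87.7 against 95.3 and 107 CPM, and overlapped after thinning to equal depth. Apart from Slitrk1, the nearest libraries of the 2 groups were within 1.5 times of each other in each of these genes.

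**Figure D5:**
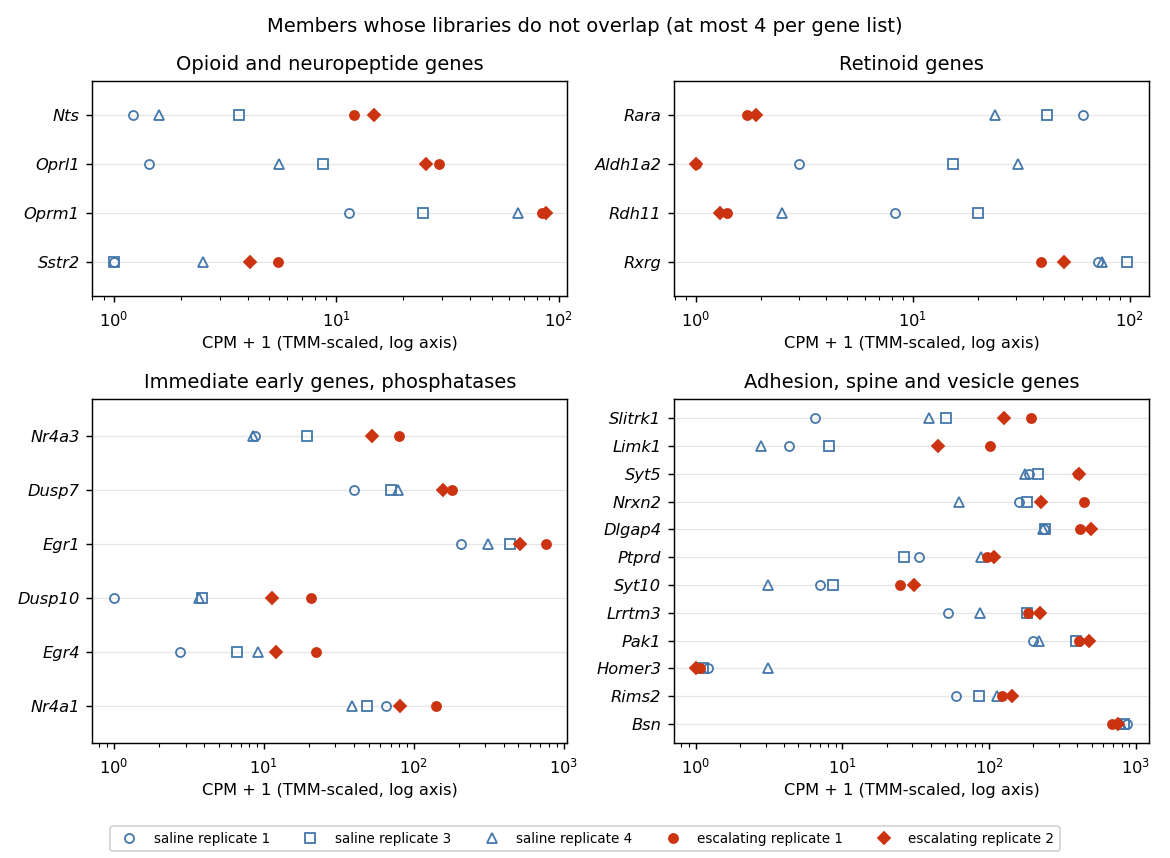
CPM + 1 (log axis) of list members whose libraries do not overlap, at most 4 per list, in 3 saline (open symbols) and 2 escalating libraries (filled symbols). Nts, Oprl1 and Oprm1 are higher and Rara, Aldh1a2, Rdh11 and Rxrg lower in both escalating libraries; for Lrrtm3, Pak1 and Bsn the symbols of the groups almost touch.

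Postsynaptic scaffold and spine genes (32 tested) held 3 higher members and 1 lower. Besides Limk1, Dlgap4, a partner of PSD-95, had 237, 239.6 and 233 CPM in saline and 416 and 491 CPM in escalating, a log2 fold change of 0.94 (SE 0.44), beside saline values within 1.1 times of each other. Pak1, a kinase that acts on Limk1, had 197, 391 and 219 against 409 and 477 CPM, with a narrow margin above saline replicate 3. The lower gene, Homer3, had 0.222, 0.121 and 2.1 against 0.0656 and 0 CPM, and overlapped after thinning.

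Among 33 synaptic vesicle and release genes, 3 were higher and 1 lower, and 24 had a positive log2 fold change (median 0.31). Syt5 (chromosome 7, 4539765 to 4547541, minus strand), a calcium sensor of vesicle release, had 185, 213 and 175 CPM in saline and 401 and 407 CPM in escalating, a log2 fold change of 1.08 (SE 0.48). The escalating values of Syt5 were nearly equal and about 2 times those of saline. Syt10, another synaptotagmin gene, had 5.99, 7.59 and 2.1 against 23.7 and 30.0 CPM. Rims2, which encodes an active zone protein, had 58.8, 84 and 112 against 122 and 143 CPM. Bsn, a large scaffold gene of the active zone and the lower member, had 875, 832 and 792 against 682 and 758 CPM, so active zone genes lay on both sides.

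The cytoskeleton and axonal transport list had 5 of 34 higher (14.7%) and 0 lower, all by modest margins. The tubulin gene Tubb2a had 46.8, 109 and 70.6 against 149 and 164 CPM. Its relative Tubb5 had 356, 323 and 203 against 370.3 and 436 CPM, and overlapped with median-of-ratios scaling. Dynactin helps the motor dynein carry cargo along microtubules. Its subunit gene Dctn1 had 173, 133 and 125 against 225 and 294 CPM, and Dctn2 had 34.4, 53.3 and 45.6 against 57.5 and 56.3 CPM. The kinesin motor gene Kif5b had 189.7, 223 and 191 against 252 and 233 CPM.

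For glutamate, Grin1, the obligatory subunit of NMDA receptors, had 70.8, 236 and 166 CPM in saline and 343 and 358 CPM in escalating, a log2 fold change of 1.15 (SE 0.49). Saline replicate 1 was the lowest and the escalating libraries were nearly equal. Grm8, the only other member of 13 NMDA and metabotropic receptor genes that was apart, had 0, 0 and 0.901 against 1.25 and 2.36 CPM, a few counts in saline. Of 17 AMPA and kainate receptor genes only the kainate receptor gene Grik1 was apart, with 1.78, 8.56 and 5.41 CPM in saline and 0 in escalating, at least 44.1-fold lower by the floor of 3 counts over the group (13.6-fold without escalating replicate 1 and 24.4-fold without saline replicate 3).

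GABA synthesis and receptor genes (18 tested) were apart in 3 cases in each direction. The GABA-B receptor, a dimer of the products of Gabbr1 and Gabbr2, lay on both sides. Gabbr1 had 382, 432 and 386 CPM in saline and 824 and 475 CPM in escalating, and was higher with a log2 fold change of 0.7 (SE 0.4). Gabbr2 had 96.5, 65.1 and 99.1 against 20.2 and 62.2 CPM, and was lower with a log2 fold change of -1.08 (SE 0.7). Among subunits of the GABA-A receptor channel, Gabrg3 was higher, with 197, 85 and 104 against 295 and 268 CPM. Gabra5, which serves extrasynaptic receptors, was higher by a narrow margin, with 4.22, 21 and 15.6 against 22.3 and 56.7 CPM.

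Among 35 potassium channel genes, 5 were higher and 2 lower. The voltage-gated channel gene Kcna1 had 356, 492 and 362 CPM in saline and 609.5 and 596 CPM in escalating. Kcna2, whose subunits join those of Kcna1 in axonal channels, had 169.8, 443 and 282 against 462 and 575 CPM. The auxiliary subunit gene Kcnab2 had 156, 162 and 63.1 against 187 and 208 CPM. In these genes the nearest libraries of the groups were within 1.3 times of each other. Kcnip3, a calcium-binding channel partner, had 226, 325 and 260.1 against 342 and 326 CPM, where the groups almost met. Kcnj3, a G protein-gated inward rectifier gene that acts downstream of inhibitory receptors, had 0, 5.55 and 5.41 against 12.4 and 9.75 CPM. The lower genes were scarce. Kcnn2, a calcium-activated channel gene, had 9.1, 3.13 and 8.71 against 0.525 and 1.62 CPM, and Kcna3 had 8.66, 5.06 and 20.1 against 0.262 and 2.66 CPM.

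Of 26 sodium and calcium channel genes 1 was apart. Cacna1d (chromosome 14, 30039939 to 30491455, minus strand), which encodes the L-type calcium channel Cav1.3, had 48.6, 41.5 and 48.1 CPM in saline, 46 ± 3.97 CPM (SD, n = 3), and 7.8 and 17.9 CPM in escalating, 12.8 ± 7.12 CPM (SD, n = 2). The log2 fold change was -1.85 (SE 0.71). Its saline libraries were within 1.2 times of each other, and both escalating libraries were less than 0.5 times the lowest of them.

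Retinoic acid, made from retinol by dehydrogenases, acts through nuclear receptors of the RAR and RXR families that are abundant in striatum. Of 16 tested retinoid genes 4 were lower, 0 higher and 10 had a negative log2 fold change, with a median of -1.09. The median was -1.17 with median-of-ratios scaling and between -1.34 and -0.70 with each of the 5 libraries left out. Besides Rara, the receptor gene Rxrg had 70.6, 96.6 and 73.6 CPM in saline and 38.2 and 49 CPM in escalating, a log2 fold change of -0.88 (SE 0.77, edgeR adjusted p = 0.819). Aldh1a2 (chromosome 9, 71215789 to 71296243, plus strand), which makes retinoic acid, had 2, 14.3 and 29.4 CPM in saline and 0 in escalating, at least 103-fold lower by the floor (31.6-fold without escalating replicate 1). In brain Aldh1a2 is known from meninges and vessels. Rdh11, a retinol dehydrogenase gene, had 7.32, 18.9 and 1.5 against 0.393 and 0.295 CPM. Endothelial and mural sums did not separate the groups, and their part in these values was not tested.

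In cholesterol and lipid synthesis (33 tested) 3 genes were higher and 5 lower (15.2%). Lss and Mvd, both of the sterol pathway, and Scd1, which desaturates fatty acids, were the higher ones. Scd1 had 2.66, 17 and 44.4 CPM in saline and 74.8 and 86.7 CPM in escalating, a log2 fold change of 1.92 (SE 0.93). Mvd had 4.22, 0.362 and 9.61 against 35.7 and 13.9 CPM. The lower genes included 3 elongases of long fatty acids and a sterol enzyme. Elovl2 had 4.88, 2.41 and 6.31 against 0 and 0.738 CPM. Elovl4 had 46.8, 6.03 and 24.6 against 3.02 and 3.54 CPM, with a saline spread of over 7 times. Elovl5 had 40.4, 30.5 and 25.2 against 20.4 and 17.3 CPM. Sc5d, an enzyme late in cholesterol synthesis, had 23.7, 24.4 and 12.6 against 7.21 and 0 CPM. Sterol enzymes thus lay on both sides, while the 3 elongases apart were all lower. Elovl2 rests on 5 escalating counts, and elongases that overlapped are not described here, so this is no statement on the family.

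Histone deacetylases and sirtuins remove acetyl groups from proteins. Of 17 tested, 2 were higher and 1 lower. Hdac5, which shuttles between nucleus and cytoplasm with neuronal activity, had 119, 148 and 158 CPM in saline and 198 and 359 CPM in escalating. Sirt6, a chromatin-bound sirtuin gene, had 5.55, 2.17 and 1.5 against 24.5 and 14 CPM. The mitochondrial deacetylase gene Sirt3 was lower, with 16.2, 8.8 and 3.9 against 1.31 and 0.886 CPM. Of 40 chromatin and DNA methylation regulators 3 were higher (7.5%) and 0 lower, near the background for the higher side. Of these, Brd2, a reader of acetylated histones, had 179.8, 221 and 185 against 258 and 229 CPM, and the other 2, Ezh2 and Smarca4, overlapped after thinning.

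Among 21 circadian clock genes 3 were higher and 2 lower. Nr1d1 (chromosome 11, 98767932 to 98775333, minus strand), the clock repressor REV-ERB alpha, had 57.3, 66.9 and 60.4 CPM in saline and 13.8 and 24.7 CPM in escalating, a log2 fold change of -1.68 (SE 0.71). Its saline libraries were within 1.2 times of each other. Its exons overlap those of Thra on the other strand. Bhlhe41, another clock repressor gene, had 29.3, 138 and 89.8 against 176 and 169.8 CPM. The core activator gene Clock had 88.5, 138 and 131 against 157 and 173 CPM, and the output factor gene Tef had 213, 234 and 153 against 284 and 256 CPM. The casein kinase gene Csnk1d, whose product acts on PER proteins, was lower, with 186, 188 and 191 against 162 and 125 CPM. Dissection times were not given in the sources used here.

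Genes of the unfolded protein response, which is raised when proteins misfold in the endoplasmic reticulum, were lower in 4 of 21 cases and higher in 0, and 15 had a negative log2 fold change. The list median was -0.27, from -0.74 to -0.14 with each library left out. Xbp1, its spliced transcription factor, had 42.6, 42.9 and 92.2 CPM in saline and 35.3 and 24.8 CPM in escalating. Sel1l, of the degradation pathway, had 184, 179 and 152 against 100.3 and 120.3 CPM, and the stress factor gene Ddit3 15.3, 4.58 and 3 against 1.18 and 0.295 CPM. Edem1 had 48.8, 53.4 and 129 against 7.74 and 44.6 CPM, and overlapped after thinning. Of 25 heat shock protein and chaperone genes only Hspa1a was apart, with 3.99, 7.47 and 1.8 against 0.0656 and 0.148 CPM, 1 count in each escalating library.

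In the oxidative phosphorylation list, which holds subunits of the respiratory chain, 10 of 67 were higher (14.9%), 1 was lower and 42 had a positive log2 fold change (median 0.13, -0.10 without saline replicate 1). Complex I subunit genes were 6 of the 10. Their number among the 67 tested is not given here, so this count is not a share of complex I. Ndufc1 had 11.8, 22.9 and 24 against 45.4 and 44.2 CPM. Atp5g1, of the ATP synthase, had 28, 48.1 and 31.2 against 102 and 55.5 CPM, and Ndufa13, the lower gene, 77.9, 44.4 and 43.2 against 37.6 and 27.3 CPM. The 10 higher subunits had ratios of mean CPM from 1.38 (Uqcrfs1) to 3.18 (Ndufa2).

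Ribosomal protein genes were apart in both directions at near the background share, with 7 of 78 higher (8.97%) and 5 lower (6.41%), and a median of 0.01 that turns negative (-0.06) with median-of-ratios scaling. Rps7 was higher, with 2.89, 19 and 32.4 against 43 and 42.5 CPM. Rpl13 was lower, with 140.5, 100.2 and 129.7 against 60.2 and 74.4 CPM, as were Rpl36a, Rpl9 and Rpl5. Reads of ribosomal protein genes may be split with their processed pseudogenes, so single members are uncertain.

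Translation factors had 4 of 39 in each direction. Besides Eif2b4, the higher ones were Eif2b2, Eif4a1 and Eef1d. Eif3i, a subunit of initiation factor eIF3, had 101, 105 and 55.9 against 52.1 and 16.7 CPM. Eif3a, the largest eIF3 subunit, had 636, 505 and 474 against 350.3 and 430.0 CPM. The other lower ones were Eif2b3 and Eif1ax. Eif2b3 overlapped after thinning, and Eif2b2 with median-of-ratios scaling, with a stricter filter and with only the 5 libraries compared. Aminoacyl-tRNA synthetases load tRNAs with amino acids, and of 37 tested 2 were higher and 3 lower. The aspartate enzyme gene Dars had 8.43, 1.69 and 6.61 against 13.2 and 40.8 CPM, and the arginine enzyme gene Rars had 16.9, 16.3 and 18.9 against 52.8 and 25.4 CPM. The lower ones were both isoleucine enzymes and a phenylalanine enzyme. The mitochondrial Iars2 had 47, 39.2 and 40.5 against 21.4 and 23.3 CPM, and the cytoplasmic Iars had 62.6, 122 and 85 against 35.7 and 58.8 CPM. Farsa had 7.77, 7.96 and 9.61 against 7.61 and 0.443 CPM. None of 21 glycolysis genes was apart.

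Of 44 ubiquitin ligase and proteasome genes 4 were higher and 1 lower. The ubiquitin ligase gene Nedd4 had 701, 831 and 633 against 955 and 926 CPM. The ubiquitin hydrolase gene Uchl1, abundant in neurons, had 36.6, 73.9 and 82.3 against 92.3 and 102 CPM. Proteasome subunits lay on both sides. Psmc4 had 2.89, 25.8 and 19.5 against 27 and 63.9 CPM, and Psma5 had 22.9, 29.4 and 16.8 against 41.1 and 44.3 CPM. Psmb4 was lower, with 26.6, 26.3 and 61.9 against 18.8 and 23.2 CPM, and overlapped after thinning.

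Markers of other cells were apart in a few cases. Among 11 microglia markers 3 were lower and 0 higher, with a negative log2 fold change in 8 and a positive one in 3. The positive ones overlapped between the groups, among them Tmem119 (0, 0 and 6.01 against 0 and 35.9 CPM) and P2ry12 (0, 1.81 and 4.5 against 15.2 and 0.148 CPM). Tyrobp, a signalling adaptor of microglia, had 2.44, 2.77 and 9.91 CPM in saline and 0 in both escalating libraries. The fractalkine receptor gene Cx3cr1 had 3.33, 6.99 and 7.21 against 0.393 and 0.738 CPM. Of 14 astrocyte markers 3 were lower and 1 higher. The gap junction gene Gja1 had 12.4, 2.41 and 13.8 against 0.525 and 0.591 CPM, and the growth factor receptor gene Fgfr3 had 14.6, 5.91 and 7.21 against 0.197 and 0 CPM. Aldh1l1 had 4.44, 1.21 and 1.2 against 0 and 1.18 CPM. The bicarbonate transporter gene Slc4a4 was higher, with 40.4, 221 and 170.0 against 227 and 352 CPM, and the margins of Slc4a4 and Aldh1l1 were lost after thinning. Summed astrocyte markers still overlapped, with 2427, 1222 and 1968 CPM in saline and 1478 and 2040.0 CPM in escalating.

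Of 13 oligodendrocyte markers, the myelin gene Mag was lower, with 5.33, 9.52 and 9.61 against 0.656 and 3.4 CPM. Ugt8a, a myelin lipid enzyme gene, was higher, with 5.99, 0.482 and 2.7 against 12 and 6.05 CPM, by a margin lost with median-of-ratios scaling. Vwf, which encodes von Willebrand factor of endothelium, had 395, 56.3 and 306 against 1039.5 and 485 CPM, a log2 fold change of 1.6 (SE 0.73), and no other endothelial marker was apart. Interneuron markers went both ways at low levels. Th, tyrosine hydroxylase, had no count in saline and 5.05 and 8.42 CPM in escalating, at least 32.7-fold higher by the floor of 3 counts over the saline group (15.9-fold without saline replicate 3). Kit, a marker in the same list, was at 0 in escalating. Slc18a3, the vesicular acetylcholine transporter gene that lies within Chat, had 0, 0.241 and 0 against 0.787 and 21.7 CPM, almost all of it in escalating replicate 2, where Chat was at 0. The part of other cells in the differences above was not tested.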

How the data were processed

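Immunopurified RNA of 24 libraries was used; the 2 input libraries were not used here. The authors deposited raw read counts per gene symbol, for which the submitters' processing notes name STAR 2.0.0e, HTSeq and mm10 (mouse). The sources used here do not give the HTSeq version, its annotation or its strand setting, so reads of overlapping or antisense genes cannot be told apart: exons of 31 of 180 named genes with an annotation overlap another protein-coding gene. HTSeq's summary rows were left out, so that 24.4% to 39.9% of all records remained in the 5 libraries.

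The 31735 genes shared by all files were filtered (edgeR's filterByExpr, minimum count 10), leaving 15854. edgeR 4.0.16 (R 4.3.3; TMM, robust quasi-likelihood test, Benjamini-Hochberg over all genes) was fitted on the 24 libraries with group and library set as terms, and the contrast was escalating minus saline, so the spread comes from all groups. The standard error is the log2 fold change over the square root of F. For named genes that were apart the adjusted p ran from 0.614 to 0.952. A gene was called apart, higher or lower, when both escalating libraries lay above or below all 3 saline libraries in TMM-scaled CPM. A gap is the log2(CPM + 1) difference of the nearest libraries. Intervals and floors (3 counts) cover counting error only. No 2 of the 5 libraries agreed within sampling noise (chi-square per degree of freedom 74.1 to 247 over 10 pairs).

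Genes were named by a rule. In each direction it took, among genes that were apart, reached 2 in mean log2 CPM and had no predicted symbol, the first 15 by p, the first 10 by gap and the first 10 by p of those at 100 CPM or more. It added up to 4 members per gene list that were apart, at any level, and 7 marker genes whether apart or not. Genes that complete a count of list members, and Ap2a1 and Junb, were chosen after their values were seen. Some list members enter the counts but are not reported here by name. The groups, lists and genes were chosen with earlier results of these data known. Coordinates are from GENCODE M21 (GRCm38) and promoters from RefSeq, matched by symbol (11099 of 15854 genes).

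Alternatives were DESeq2 1.42.0, limma 3.58.1 (voom), median-of-ratios scaling, other filters, other sets of libraries, thinned counts, a term for non-neuronal markers and each library left out.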

Additional observations from a re-analysis of the deposited data

Results flagged for a closer look

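For 18 genes the levels in the 5 nonescalating libraries were screened for a library far from the others. In Gpr173 the highest nonescalating library had 56.3 CPM, against a median of 17.5 CPM, and in Hsd3b7 the highest had 79.9 CPM, against a median of 28.8 CPM. Chance alone marks about 1 in 20 groups in such a screen. The highest Gpr173 value is below both escalating libraries (87.2 and 218 CPM), and that of Hsd3b7 lies between them (81.6 and 71.6 CPM).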

How the results depend on the processing

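The count of genes past the threshold was 0 under edgeR with each other scaling, filter, set of libraries, thinning and added term, and 143 under DESeq2. It was 0 to 1 with single libraries left out: Ap2a1 passed without escalating replicate 1 (edgeR adjusted p = 0.0267) and Pard6g without escalating replicate 2 (edgeR adjusted p = 0.0185), where the lone escalating library is assumed to vary like the other groups. With fewer libraries to separate, 1874 to 4048 genes were higher and 1789 to 3092 lower when 1 of the 5 was left out, and 1168 and 1060 without nonescalating replicate 4, an alternative chosen after seeing the data. In the other settings 1106 to 1288 were higher and 982 to 1159 lower. Of 173 named genes that were apart, 163 stayed so with median-of-ratios scaling and 157 after thinning to equal depth. With single libraries left out, log2 fold changes ran from -0.14 (without escalating replicate 1) to 0.96 for Adora2a and from -3.69 (without escalating replicate 1) to 8.32 for Pard6g. Without escalating replicate 2 the lowest values were -3.90 for Fos (highest 5.33) and -1.15 for Ap2a1 (highest 5.77), and limma voom gave -0.30 for Fos. Penk ran from -0.13 (without saline replicate 1) to 1.02, with -0.10 without saline replicate 4 or escalating replicate 2. Tac1 ran from -2.64 to 0.62 (without escalating replicate 1), with 0.23 and 0.01 when saline replicate 3 or 4 was left out. The cause was not tested. No paired analysis was possible because the groups share only replicate number 1. Depth limits genes of under about 1 CPM, where the shallowest library has 3 counts or fewer.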

Other observations

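Some of the largest fold changes came from 1 escalating library. Pard6g, a cell polarity gene, had 1.33, 4.7 and 6.31 CPM in saline and 1302 and 0.295 CPM in escalating. Ap2a1, a subunit gene of the clathrin adaptor AP-2, had 346, 127 and 85 against 81.1 and 10145 CPM, so that escalating replicate 1 was below all saline libraries and replicate 2 far above them. Junb, an AP-1 gene of the immediate early list, had 0, 4.22 and 3.3 against 85.4 and 1.03 CPM. In Pard6g, too, the escalating libraries lay on opposite sides of saline, and in Junb replicate 2 lay within the saline range.

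Clathrin and adaptor genes (22 tested) held 2 lower members and no higher one. Ap1m1, of the adaptor AP-1 at the Golgi, had 153, 51.4 and 55.6 CPM in saline and 26.1 and 21.4 CPM in escalating, a log2 fold change of -1.86 (SE 0.76), and Bin1, a membrane-bending protein gene, 97.4, 49.5 and 89.2 against 24.1 and 36.5 CPM. Of 15 glucocorticoid receptor and target genes, Ddit4, an inhibitor of mTOR signalling, was higher (3.99, 3.74 and 6.61 against 21.4 and 14.3 CPM) and Hif3a lower (3.77, 3.25 and 4.5 against 0.0656 and 1.03 CPM). In Wnt, Notch and TGF-beta signalling (38 tested) the BMP receptor gene Bmpr1a was higher (33.7, 68.7 and 58.3 against 85.3 and 100 CPM), and Smad2 (110.3, 72.8 and 56.5 against 40.7 and 55.1 CPM) and Tgfb3 (5.77, 11.9 and 5.41 against 0.853 and 3.99 CPM) were lower, Tgfb3 by a margin lost after thinning. Of all genes tested, 7.37% were higher and 6.67% lower.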
